A study of Caenorhabditis elegans with 16 samples.

Results

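Transposons are mobile elements, and the transcripts examined here are the 351 entries of the class named transposon in the count tables, out of 56374 transcripts with a class. They belong to 349 genes, and the table headers call 331 of them transposon mRNAs and 20 transposon pseudogenic transcripts. They were chosen by that class alone, so no read count entered the choice. The element family (Tc1, Tc3 and so on) of a transcript is not given in the sources used here, and none of the 351 matched the reference annotation by gene identifier, so each transcript is called by its WormBase sequence name. Such a name begins with the cosmid or other clone that holds the locus, and other annotated genes of the same clone placed 340 of the 351 on a chromosome of the WBcel235 assembly: 59 on I, 51 on II, 35 on III, 68 on IV, 75 on V and 52 on X, with 11 not placed.

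In C. elegans, transposon RNA is silenced by small RNAs that are antisense to it. RNA-dependent RNA polymerases copy 22G siRNAs from a target transcript, and worm-specific Argonaute proteins (WAGOs) bind them: WAGO-1 is found in germline P granules in the cytoplasm, HRDE-1 acts in germline nuclei and NRDE-3 in the nuclei of somatic cells. CDE-1, also listed as CID-1 or PUP-1, is a poly(U) polymerase that adds untemplated uridines to 3′ ends of small RNAs. ERI-1 is an exonuclease needed for the endogenous siRNA pathway that supplies NRDE-3.

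The question of each pair was what the loss of cde-1 did to small RNAs as a whole or bound to 1 Argonaute. Total small RNA came from young adults of N2, the wild type, and of cde-1(tm936). HRDE-1 and WAGO-1 were precipitated from young adults that carried GFP::HRDE-1 or GFP::WAGO-1, with and without cde-1(tm936). NRDE-3 was precipitated from embryos that carried GFP::NRDE-3, with and without cde-1(tm936), and from L3 larvae with GFP::NRDE-3 in eri-1(mg366) or in eri-1(mg366);cde-1(tm936). Worms grew at 20 °C on E. coli OP50, except the L3 pair, which grew on HT115. All precipitations used an anti-FLAG antibody directed at the tag, and the tagged proteins came from transgenes under the promoters of their own genes. The control of the L3 pair thus already lacked eri-1, and the sample title of its mutant library spells the cde-1 allele differently from its genotype label, which was followed.

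There was 1 library per group, so a difference between 2 libraries has no replicate check, no p-value is given, and intervals (95%) cover counting error only. The libraries held 5200610 to 9919222 counted reads, of which 10.3 to 66.2% fell on class rRNA. Levels are read counts on 1 strand of a transcript, given as reads per 1000000 counted reads outside class rRNA (RPM), with denominators of 3041177 to 6806774 reads. They are not divided by transcript length, so levels of 2 transcripts are set side by side as read shares only, and a lower share of 1 class cannot be told apart from a higher share of the others. Sense reads of cde-1 itself were lower in every mutant library than in its control, for example 17.1 against 98.3 RPM in total small RNA and 24.7 against 80.3 RPM in the HRDE-1 pair. Sense reads of the embryonic miRNAs mir-35 to mir-42 summed to 3541 and 3598 RPM in the embryo pair and 275 and 433 RPM in the L3 pair, whereas lin-4, a miRNA of larvae, stood at 0.329 and 0.352 RPM in embryos and 285 and 464 RPM at L3. The young adult total libraries held 7868 RPM (N2) and 5014 RPM (cde-1) of the embryonic miRNAs, more than the embryo pair, and only 48.0 and 48.5 RPM of lin-4. A miRNA of late larvae and adults, let-7, stood at 954 and 916 RPM in the L3 pair and 13.2 and 10.2 RPM in the embryo pair. In young adult total RNA it held 142 and 181 RPM, less than at L3.

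Transposon transcripts were read mainly on the antisense strand, and most heavily in the germline Argonautes. Antisense reads made up 9.24% of the WAGO-1 control library (92444 RPM, Wilson interval 92207 to 92682) and 8.23% of the HRDE-1 control library (82322 RPM, 82060 to 82585). In total small RNA of N2 they made up 0.686% (6864 RPM, 6801 to 6929). The NRDE-3 control libraries held 35121 RPM in embryos and 4058 RPM in eri-1 L3 larvae. The sense strand held far less, 1776 RPM in WAGO-1, 1783 RPM in HRDE-1 and 942 RPM in total RNA, and 399 RPM in NRDE-3 of embryos and 870 RPM in NRDE-3 of L3. Antisense reads were 97.9 and 98.1% of transposon reads in HRDE-1 and WAGO-1, 98.9% in NRDE-3 of embryos, 87.9% in total RNA and 82.3% in NRDE-3 of eri-1 L3. Sense protein-coding reads made up 62.6% (eri-1) and 51.9% (eri-1;cde-1) of reads outside class rRNA at L3, against 63.5% in total N2. In the control precipitations of NRDE-3 from embryos, HRDE-1 and WAGO-1 they made up 12.6, 23.7 and 16.9%. How far the L3 libraries hold RNA bound to NRDE-3 was not tested.

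**Figure D1:**
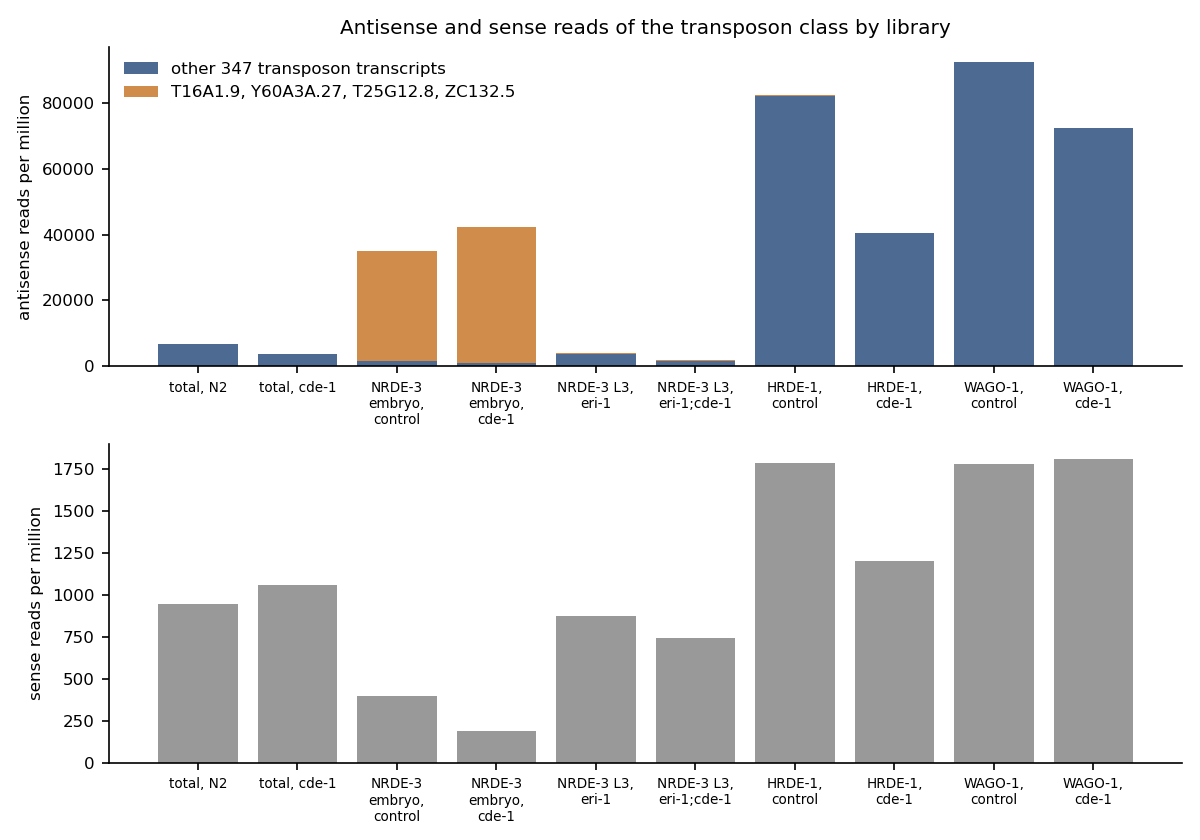
Summed antisense (top) and sense (bottom) reads of the 351 transposon transcripts in RPM, 1 bar for each of the 10 libraries. Orange marks 4 transcripts, which hold nearly the whole bar in both NRDE-3 embryo libraries and a thin slice elsewhere. Mutant bars are lower than control bars on the antisense strand in every pair but the NRDE-3 embryo pair.

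Without cde-1, the antisense class sum was lower in 4 of the 5 pairs and higher in NRDE-3 of embryos. In total small RNA it went from 6864 to 3587 RPM, a ratio of 0.523 (0.514 to 0.531). In HRDE-1 it went from 82322 to 40603 RPM, a ratio of 0.493 (0.491 to 0.496), and in WAGO-1 from 92444 to 72565 RPM, with a ratio of 0.785 (0.782 to 0.788). Of the 4 lower pairs, WAGO-1 changed least. In NRDE-3 of eri-1 L3 it went from 4058 to 1761 RPM, a ratio of 0.434 (0.423 to 0.445). In NRDE-3 of embryos it went from 35121 to 42309 RPM, a ratio of 1.20 (1.20 to 1.21), which became 2.60 with rRNA reads kept in the denominator.

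Antisense reads of protein-coding transcripts moved the other way in the pairs with a lower transposon share: their ratio was 1.24 in total RNA, 1.49 in NRDE-3 of eri-1 L3, 1.08 in HRDE-1 and 1.04 in WAGO-1. Antisense reads of lincRNAs, long noncoding RNAs, had ratios of 0.741 in total RNA, 0.825 in HRDE-1 and 0.762 in WAGO-1, so that class was also lower there, and 4.54 in NRDE-3 of eri-1 L3. In the embryo pair the ratios were 0.984 for protein-coding transcripts and 1.36 for lincRNAs. Sense reads of transposon transcripts followed the antisense strand only in part, being lower too in HRDE-1 and in NRDE-3 of eri-1 L3. Their ratio was 1.12 (1.08 to 1.16) in total RNA, 1.02 (0.992 to 1.05) in WAGO-1, 0.850 (0.814 to 0.888) in NRDE-3 of eri-1 L3, 0.674 (0.654 to 0.696) in HRDE-1 and 0.475 (0.437 to 0.515) in NRDE-3 of embryos. In that embryo pair the sense reads of protein-coding transcripts had nearly the same ratio, 0.470. The class rRNA took 66.2% of the embryo control library and 26.9% of the mutant one, and its part in this pair was not tested.

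Single transcripts were compared where either library of a pair held at least 50 antisense reads, and were counted as higher or lower at a 2-fold change after 1 read on average was added to each side. In total small RNA, 150 of the 351 had such counts, of which 66 were lower in cde-1 and 2 higher. Over all 4126 transcripts tested there, 9.09% were lower and 25% higher. Thus 44.0% of the tested transposon transcripts were lower, and the median log2 ratio was -0.80 against 0.53 for all transcripts.

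In HRDE-1, 260 were tested, of which 94 were lower and 4 higher, with 10.8% of all 9702 tested transcripts lower and 34.9% higher. The median log2 ratio was -0.72 against 0.55. Scaling by the trimmed mean of M values (TMM), which sets the middle of all transcripts to no change, left 176 lower and 1 higher. It shifted every log2 ratio by -0.51, so the shares of all transcripts above do not apply to these counts. In WAGO-1, 266 were tested, of which 59 were lower and 14 higher, where 16.5% of all 6365 transcripts were lower and 17.3% higher. The median was -0.19 against 0.09, so the middle of the transposon class lay close to that of all transcripts in WAGO-1. Most of the 266 (193) changed by less than 2-fold there.

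In NRDE-3 of eri-1 L3, 86 were tested, of which 54 were lower and 5 higher, with 17.0% of all 3480 transcripts lower and 52.2% higher. The median was -1.30 against 1.09, the widest gap between transposon transcripts and all transcripts among the 5 pairs. In NRDE-3 of embryos only 36 were tested, of which 19 were lower and 3 higher, with 27.8% of all 1604 transcripts lower and 29.8% higher. The median was -1.04 against 0.21. With all counted reads as the denominator, rRNA included, this last split turned to 6 lower and 11 higher, and with a minimum of 10 reads it was 48 and 49. That denominator shifted every log2 ratio of the pair by 1.11, those of all transcripts too. The shares and median of all transcripts above therefore do not apply to these counts. In all, 73 of the 351 transcripts had too few reads for any of the 5 pairs.

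**Figure D2:**
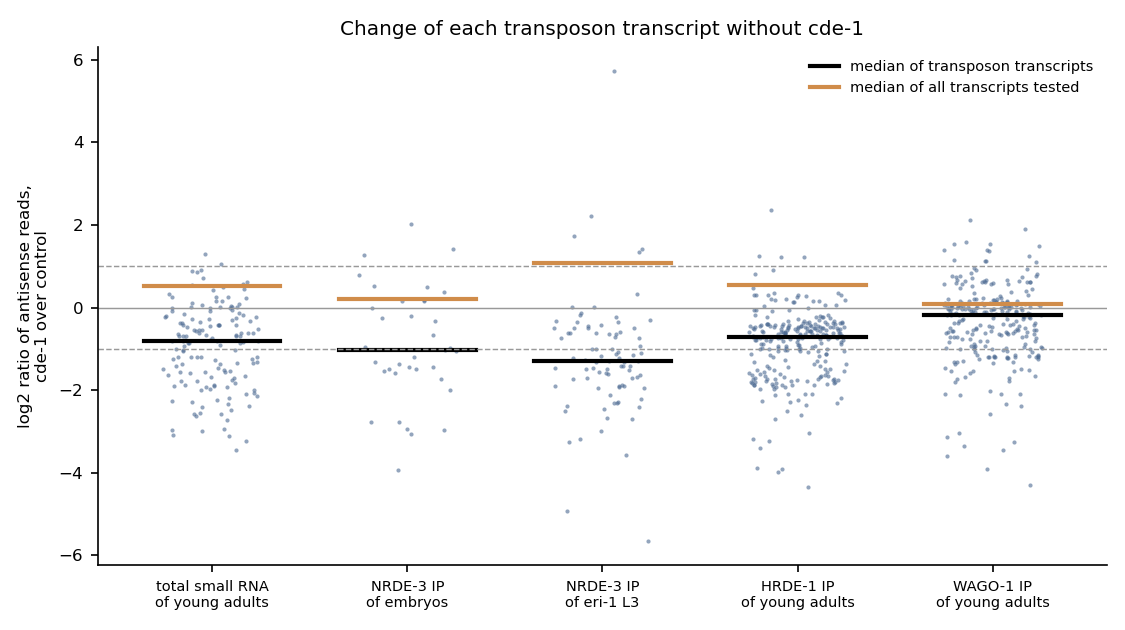
Log2 ratio of antisense RPM, cde-1 over control, for each transposon transcript with at least 50 reads in either library of a pair (points, spread sideways for legibility). Black bars are the medians of these transcripts, orange bars the medians of all transcripts tested, and dashed lines mark 2-fold. The black bar lies below the orange one in each pair, with the gap least in WAGO-1.

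In both NRDE-3 embryo libraries most transposon reads fell on a few transcripts. T16A1.9 (WBGene00020538; clone on chromosome II), Y60A3A.27 (WBGene00045512; V) and T25G12.8 (WBGene00020814; X) together took 94.2% of all antisense transposon reads in the control and 95.3% in cde-1. T16A1.9 held 21497 RPM in the control and 23822 RPM in cde-1 (65375 and 135260 reads), a ratio of 1.11 (1.10 to 1.12). Y60A3A.27 held 6656 and 9527 RPM, a ratio of 1.43 (1.41 to 1.45). T25G12.8 held 4943 and 6960 RPM, a ratio of 1.41 (1.38 to 1.43). All 3 were higher in the mutant, by less than 2-fold.

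ZC132.5 (WBGene00022524; V) came next among the transcripts read mostly in NRDE-3, with 343 RPM in the control and 911 RPM in cde-1, a ratio of 2.66 (2.49 to 2.84). Without these 4 transcripts, which were singled out after their values were seen, the antisense class sum of the embryo pair went from 1682 to 1089 RPM, a ratio of 0.648. The direction of this sum over the remaining 347 turned with the denominator, since it was 1.40 when rRNA reads were counted in.

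In the other libraries the same transcripts were far less read. T16A1.9 had no antisense read in either L3 library, which allows up to 0.580 RPM in eri-1 and 0.609 RPM in eri-1;cde-1, and it held 33.2 RPM in the HRDE-1 control, 13.5 RPM in the WAGO-1 control and 12.7 RPM in total N2. T25G12.8 had 1 read in eri-1 L3 larvae and 6 in eri-1;cde-1, 2 in the HRDE-1 control and 33 in the WAGO-1 control. Y60A3A.27 remained readable in L3 larvae without eri-1, at 178 RPM and, without cde-1, 143 RPM, where it was the most read transposon transcript, against 7.11 RPM in the HRDE-1 control and 9.27 RPM in the WAGO-1 control. ZC132.5 rose in the L3 pair as well, from 35.8 to 91.9 RPM (185 to 453 reads), a ratio of 2.57 (2.17 to 3.05). Embryos and L3 larvae here differ in stage, food and eri-1 at once, so these cannot be told apart.

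Protein-coding transcripts of the same clones were read by NRDE-3 in embryos too. The most read one on the clone of T16A1.9 was T16A1.8, with 3773 RPM in the control and 7404 RPM in cde-1. On the clone of T25G12.8 it was T25G12.11, with 5031 and 2706 RPM, and on that of ZC132.5 it was ZC132.4, with 38217 and 56224 RPM. On the clone of Y60A3A.27 no other transcript passed 9.86 RPM in the control. Whether reads were shared between these neighbours was not tested.

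**Figure D3:**
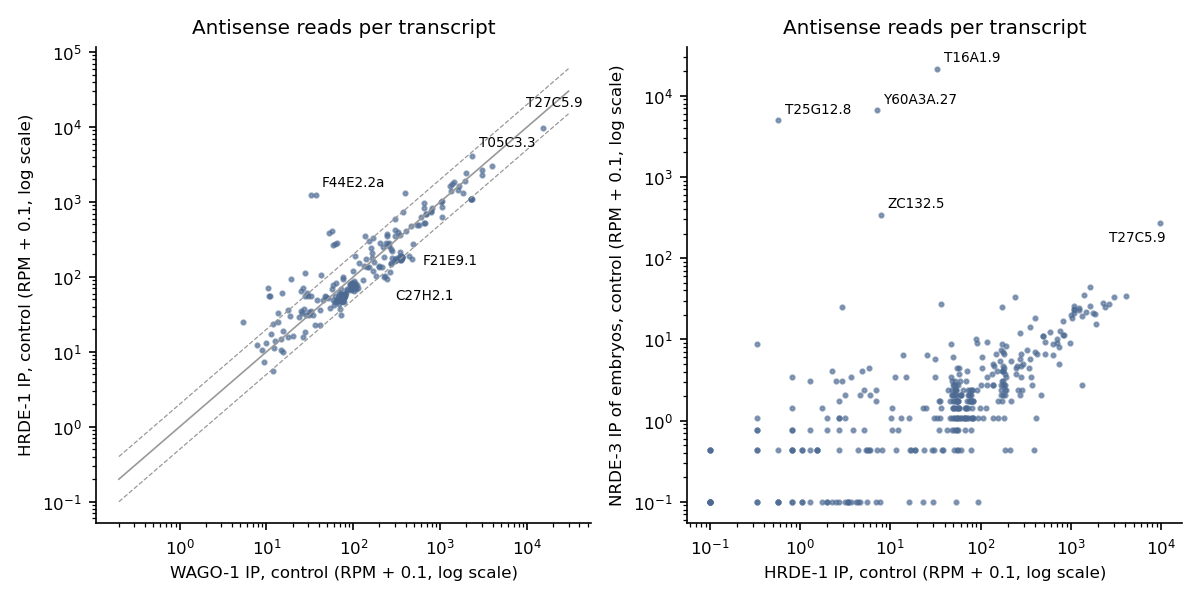
Antisense RPM of each transposon transcript, plus 0.1, on log axes: HRDE-1 against WAGO-1 control libraries for the 259 transcripts tested (left, with the line of equality and dashed lines at 2-fold) and NRDE-3 of embryos against HRDE-1 for all 351 (right). On the left most points lie between the dashed lines, with F44E2.2a and F44E2.2b far above; on the right 4 named transcripts stand high in NRDE-3 and low in HRDE-1.

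Both germline Argonautes were rich in antisense transposon reads relative to total RNA. The class sum was 12.0 times (11.9 to 12.1) that of total N2 in HRDE-1 and 13.5 times (13.3 to 13.6) in WAGO-1. Antisense protein-coding reads were also richer, 5.53 and 6.21 times. Both comparisons use the same total library, and whether total and precipitated RNA were prepared alike was not tested.

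For HRDE-1, 250 of 256 tested transposon transcripts were at least 2-fold higher than in total N2 and 3 lower, where 82.8% of all transcripts tested were higher and 10.5% lower. The median log2 ratio was 3.37 against 2.44 for all transcripts. For WAGO-1, 250 of 261 were higher and 3 lower, where 70.1% of all transcripts were higher and 16.2% lower. The median was 3.63 against 2.39. Relative to antisense protein-coding reads the class sum was only 2.17 times that of total N2 in either Argonaute. TMM scaling, which shifted every log2 ratio by -2.49 in HRDE-1, left 109 transposon transcripts higher and 8 lower there. The shares of all transcripts above do not apply to these counts.

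T27C5.9 (WBGene00012082; V) was the most read transposon transcript in both germline Argonautes and in total RNA. It held 15064 RPM in the WAGO-1 control, 9638 RPM in the HRDE-1 control and 870 RPM in total N2, against 267 RPM in NRDE-3 of embryos and 277 RPM in NRDE-3 of eri-1 L3. It was thus 16.3% of all antisense transposon reads in WAGO-1, 11.7% in HRDE-1 and 12.7% in total N2. Others among the most read were K03D3.6 (IV) with 3971 RPM in WAGO-1 and 2993 RPM in HRDE-1, F58H7.6 (IV) with 2992 and 2662 RPM, R13D11.7 (V) with 3037 and 2288 RPM, and T05C3.3 (V) with 2343 and 4138 RPM. T05C3.3 was the only one of these 5 with more reads in HRDE-1 than in WAGO-1.

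Reads were spread over many transcripts in these libraries. In the HRDE-1 control 113 transcripts held at least 100 RPM and 22 at least 1000 RPM, and 18 were enough for 50% of the antisense class reads. In the WAGO-1 control the numbers were 120, 22 and 15, and in total N2 21 transcripts were needed for 50%. In NRDE-3 of embryos 1 was enough in either library. The median transcript held 70.5 RPM in WAGO-1, 55.4 RPM in HRDE-1, 5.94 RPM in total N2, 3.29 RPM in NRDE-3 of eri-1 L3 and 1.64 RPM in NRDE-3 of embryos. Only 2 of the 351 had no antisense read in any of the 10 libraries.

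Most transposon transcripts had like shares in HRDE-1 and WAGO-1. Of 259 tested, 217 differed by less than 2-fold, 22 were higher in HRDE-1 and 20 higher in WAGO-1, while of all 7003 transcripts tested 38.5% were higher in HRDE-1 and 11.5% lower. The class sum ratio, HRDE-1 over WAGO-1, was 0.891 (0.887 to 0.894), and the median log2 ratio was -0.32 against 0.56 for all transcripts. TMM scaling, which shifted every log2 ratio by -0.50, left 15 higher and 75 lower. The shares of all transcripts above are without that shift.

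F44E2.2a and F44E2.2b (both WBGene00018416; III), 2 transcripts of 1 gene whose shared reads cannot be assigned to one or the other, stood furthest to the HRDE-1 side. F44E2.2a held 1232 RPM in HRDE-1 and 36.7 RPM in WAGO-1 (5201 and 210 reads), a ratio of 33.5 (29.2 to 38.5). F44E2.2b held 1222 and 32.2 RPM, a ratio of 38.0 (32.8 to 44.0). In total N2 the levels were 44.8 and 41.9 RPM, so WAGO-1 held no more of F44E2.2a than total RNA did, with a ratio of 0.820 (0.686 to 0.979). F44E2.2c, also in the transposon class, was far less read in HRDE-1, at 70.1 RPM against 6.72 RPM in total N2. K01A11.5 and Y43F4B.2, a pair with near-equal counts named after their values were seen, followed at 7.35 times (6.74 to 8.00) as a sum. To the WAGO-1 side stood F21E9.1 (X), with 174 RPM in HRDE-1 and 472 RPM in WAGO-1, a ratio of 0.369 (0.341 to 0.401), and C27H2.1 (IV), with 92.2 and 245 RPM, a ratio of 0.377 (0.337 to 0.421).

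The steepest falls without cde-1 included well-read transcripts. T23B12.10 (WBGene00020724; V) was lower in all 5 pairs, going from 96.7 to 10.9 RPM in total RNA, 1324 to 204 RPM in HRDE-1, 1819 to 205 RPM in WAGO-1, 19.4 to 1.06 RPM in NRDE-3 of embryos and 88.4 to 7.30 RPM in NRDE-3 of eri-1 L3. The ratios ran from 0.0545 (0.0235 to 0.126) in NRDE-3 of embryos, where the mutant had 6 reads, to 0.154 (0.145 to 0.163) in HRDE-1. No upper bound passed 0.163 in any pair.

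Y20F4.9 (WBGene00206476; I) went from 164 to 14.9 RPM in total RNA, a ratio of 0.0907 (0.0725 to 0.113), from 2395 to 263 RPM in HRDE-1 (0.110, 0.104 to 0.115) and from 1958 to 238 RPM in WAGO-1 (0.122, 0.115 to 0.128). Its sense reads were much less changed in total RNA, 12.7 against 11.7 RPM. In NRDE-3 of embryos it had 76 and 89 reads, a ratio of 0.627 (0.462 to 0.852), the least change of its 5 pairs.

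On clone F57G4 (V), F57G4.7, a pseudogenic transcript, went from 114 to 12.0 RPM in total RNA, a ratio of 0.106 (0.0825 to 0.136), and from 48.7 to 1.42 RPM in NRDE-3 of eri-1 L3, a ratio of 0.0291 (0.0138 to 0.0618). F57G4.6 had 51 reads in eri-1 L3 larvae and none in eri-1;cde-1, at least 16.2-fold lower when the mutant is set to 3 reads. Both were lower in HRDE-1 and WAGO-1 as well, with ratios of 0.202 and 0.233 for F57G4.7 and 0.164 and 0.191 for F57G4.6.

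Among single transcripts Y60A3A.30 (V) showed the largest fall in HRDE-1, from 69.4 to 3.25 RPM, a ratio of 0.0468 (0.0304 to 0.0722). F44E2.2a came next, from 1232 to 77.3 RPM, 0.0627 (0.0573 to 0.0686). Y60A3A.30 and Y60A3A.36 have near-equal counts, and their sum had a ratio of 0.0690 (0.0533 to 0.0893). That of F44E2.2a and F44E2.2b was 0.0647 (0.0607 to 0.0689), so the order of these falls turned with summing. In WAGO-1, Y69A2AR.20 (IV) went from 100 to 5 reads, a ratio of 0.0420 (0.0171 to 0.103), and R03G8.2 (X) from 114 to 7.35 RPM, 0.0646 (0.0484 to 0.0861). R03G8.2, C49A1.8 and F22B3.3, which have near-equal counts, had a ratio of 0.0778 (0.0664 to 0.0911) as a sum in WAGO-1. F44E2.2a fell in WAGO-1 too, from 36.7 to 6.02 RPM, a ratio of 0.164. F44E2.2a, second only to F44E2.2b in HRDE-1 reads relative to WAGO-1, was therefore among those lower in both precipitations. It was also lower in total RNA, where it went from 44.8 to 13.6 RPM.

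Of the 146 transcripts tested in total RNA, HRDE-1 and WAGO-1 alike, 34 (23.3%) were at least 2-fold lower in all 3 pairs, 24 in 2, 21 in 1 and 67 (45.9%) in none, and 6 were at least 2-fold higher in at least 1. Over the 2583 transcripts of all classes tested in these pairs, the shares lower in all 3 and in none were 6.47% and 79.8%. Of the 34, 5 came from clone F57G4. Of the 29 transcripts tested in all 5 pairs, 4 were lower in all (F44E2.2a, C44B12.7, C03A7.1 and T23B12.10) and 3 in none (R06A4.3, T05H4.9 and Y73B3A.6), which is 13.8% and 10.3%. Among the 745 transcripts of all classes tested in all 5 pairs, 4.43% were lower in all and 66.6% in none.

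T05H4.9 (WBGene00020272; V) was the most read of these 3 in HRDE-1. It held 105 and 123 RPM in total RNA, a ratio of 1.17 (1.06 to 1.31), 1461 and 1369 RPM in HRDE-1 (0.937, 0.907 to 0.967) and 1613 and 2524 RPM in WAGO-1 (1.56, 1.53 to 1.60). T27C5.9, with still more reads, went from 870 to 325 RPM in total RNA (0.374, 0.354 to 0.394), from 9638 to 4699 RPM in HRDE-1 (0.488, 0.480 to 0.495) and from 15064 to 11184 RPM in WAGO-1 (0.742, 0.735 to 0.750). K03D3.6 was at 2993 and 1609 RPM in HRDE-1 and at 3971 and 4012 RPM in WAGO-1, where its ratio was 1.01 (0.993 to 1.03).

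Rises were fewer and mostly of weakly read transcripts. In total RNA F56C9.2 (III) went from 4.84 to 12.2 RPM, a ratio of 2.52 (1.65 to 3.85), and C38D9.3 (V) from 28 to 52 reads, a ratio of 2.13 (1.35 to 3.38). C38D9.3 was also the largest rise in HRDE-1, from 13 to 112 reads (5.38, 3.03 to 9.55), followed by Y57G11C.19 (IV), from 15 to 59 reads (2.45, 1.39 to 4.33). Neither C38D9.3 nor Y57G11C.19 passed 16.6 RPM in any library.

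In WAGO-1, Y108F1.2 (X) held 11.2 RPM in the control and 49.5 RPM in cde-1, a ratio of 4.42 (3.38 to 5.78), and C46G7.3 (WBGene00016723; IV) 371 and 1389 RPM, a ratio of 3.74 (3.57 to 3.92). C46G7.3 was the most read of these transcripts, and its levels in HRDE-1 were 735 and 805 RPM and in total RNA 66.2 and 67.3 RPM. B0478.2 (IV) went from 9 to 72 reads in NRDE-3 of embryos (4.28, 2.14 to 8.57) and from 51.1 to 135 RPM in WAGO-1 (2.65, 2.32 to 3.02), against 52.6 and 44.6 RPM in HRDE-1.

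In NRDE-3 of eri-1 L3, F15A2.7 (WBGene00008836; X) went from 2 to 153 antisense reads, a ratio of 80.3 with a wide interval of 19.9 to 324. K01D12.2 (V) went from 13 to 61 reads (4.92, 2.71 to 8.96). F15A2.7 was otherwise read mainly on the sense strand, which held 74.6% of its reads over the 10 libraries.

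**Figure D4:**
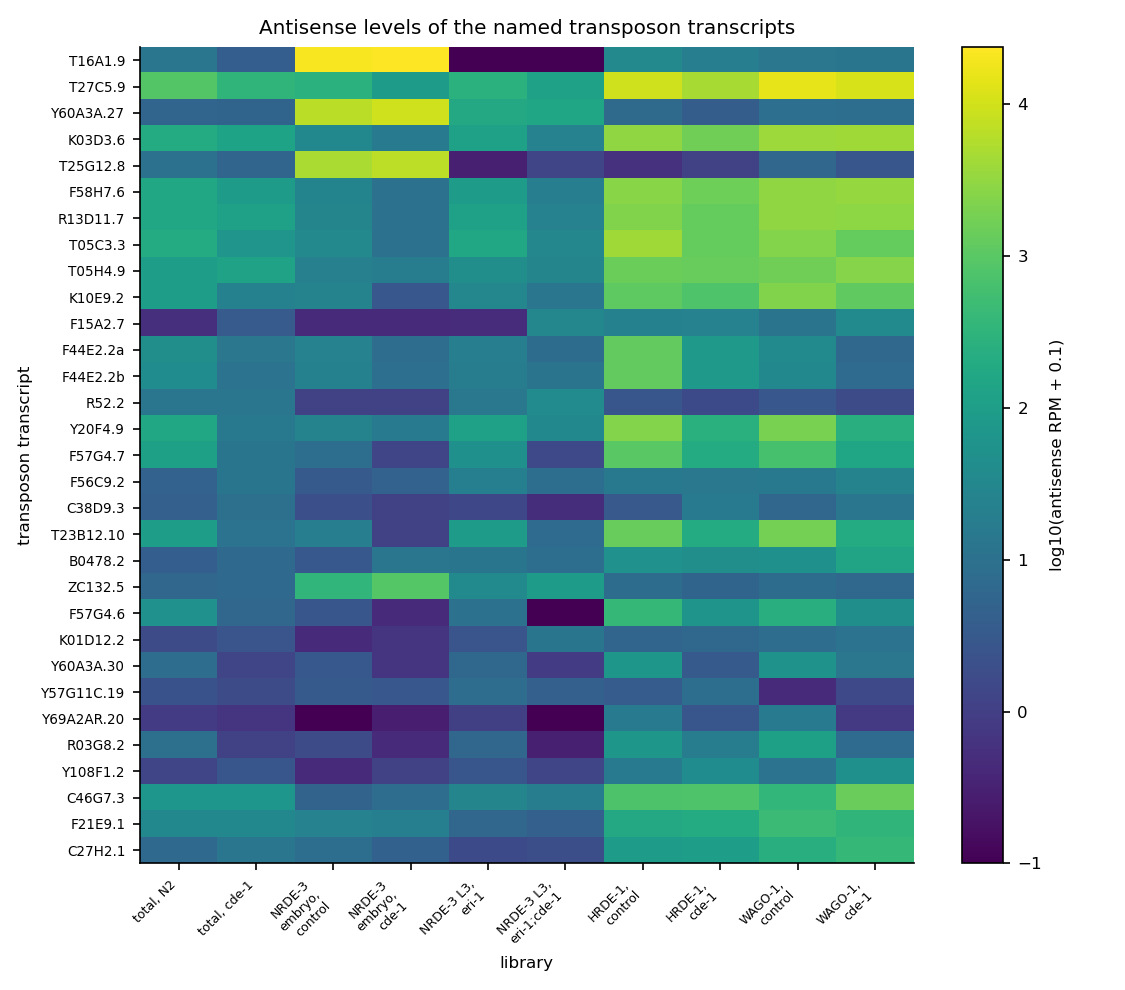
Antisense level, as log10 of RPM plus 0.1, of the 31 named transposon transcripts (rows) in the 10 libraries (columns). T16A1.9, Y60A3A.27, T25G12.8 and ZC132.5 are bright in the NRDE-3 embryo columns, and most other transcripts in the HRDE-1 and WAGO-1 columns.

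The 20 pseudogenic transcripts differed most from the 331 transposon mRNAs in embryos, where their summed antisense level had a ratio of 0.408 (0.333 to 0.499) and that of the mRNAs, which include T16A1.9, Y60A3A.27, T25G12.8 and ZC132.5, 1.21 (1.20 to 1.21). Their summed antisense level had a ratio of 0.344 (0.318 to 0.373) in total RNA against 0.534 (0.525 to 0.543) for the mRNAs, and 0.626 (0.615 to 0.637) against 0.794 (0.791 to 0.797) in WAGO-1. In HRDE-1 the ratios were 0.50 (0.489 to 0.511) and 0.493 (0.490 to 0.495), and in NRDE-3 of eri-1 L3 0.449 (0.404 to 0.499) and 0.433 (0.422 to 0.444), so that in these pairs the intervals overlapped. They held 6.00% of antisense transposon reads in total N2, 4.98% in HRDE-1 and 5.24% in WAGO-1.

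The sense strand was led in part by other transcripts. T27C5.9 had the highest mean sense level, 47.1 RPM over the 10 libraries, with 172 and 177 RPM in the WAGO-1 pair against 22.5 and 18.6 RPM in the HRDE-1 pair. F15A2.7 held 141 and 134 RPM of sense reads in WAGO-1 and 22.8 and 12.0 RPM in total RNA. R52.2 (II) held most in NRDE-3 of eri-1 L3, 105 and 61.3 RPM, and 36.5 and 24.2 RPM in HRDE-1. F44E2.2a and F44E2.2b held 75.3 and 80.1 RPM of sense reads in total N2 and 55.6 and 54.6 RPM in cde-1, more than their antisense reads there. Of the 308 transcripts with at least 100 reads over all libraries, 16 had over 50% of them on the sense strand, with C06G3.12 (84.7%) the most one-sided. R52.2 was among the few transcripts lower in both germline Argonautes than in total RNA by antisense reads, at 2.61 RPM in HRDE-1 and 2.80 RPM in WAGO-1 against 13.0 RPM in total N2.

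Many transposon transcripts had antisense counts near-equal to those of another when differences were averaged over the libraries. Such transcripts were joined into sets (a mean squared difference of under 3 times the counting variance, for transcripts with at least 200 antisense reads in all), a rule set after the counts were seen. A transcript joined a set if it was that near to any 1 member, so other members can differ more. In the set of 53, for example, members held 0.329 to 5.92 RPM in the NRDE-3 embryo control. Of 270 eligible transcripts, 149 fell into 20 sets, with 53, 27 and 17 members in the largest. Bowtie2 reports by default 1 placement for a read that fits several sequences equally well, so reads of near-identical copies would be divided among them. Whether the members of a set are such copies was not tested, and each set is given by its summed level. Each set of 17 or more covered at least 5 chromosomes by clone name.

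The set of 53, which holds B0513.10, summed to 286 RPM in total N2, 2786 RPM in HRDE-1 and 3769 RPM in WAGO-1. Its ratio without cde-1 was 0.708 (0.657 to 0.762) in total RNA, 0.656 (0.640 to 0.673) in HRDE-1 and 0.993 (0.975 to 1.01) in WAGO-1. In NRDE-3 the set was higher in embryos, at 2.55 (2.25 to 2.90) with 94.4 and 241 RPM, and lower at eri-1 L3, at 0.480 (0.420 to 0.548). Its members each held 42.2 to 60.2 RPM in the HRDE-1 control.

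The set of 27, which holds B0213.1 and ZK1251.4, was lower in every pair. It went from 199 to 53.3 RPM in total RNA (0.269, 0.237 to 0.305), from 2033 to 616 RPM in HRDE-1 (0.303, 0.292 to 0.315) and from 2607 to 1186 RPM in WAGO-1 (0.455, 0.443 to 0.467). Of the 34 transcripts lower in all 3 young adult pairs, 10 belonged to this set. Other members, such as F59C6.1 with 49 reads and ZK856.2 with 48 in total N2, fell short of the minimum in the total pair. They could therefore not be counted among the 34. As the counts of the 10 are near-equal, they may not be 10 separate falls, and whether they share reads was not tested.

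The set of 17, which holds C01B12.6, summed to 3041 RPM in HRDE-1 and 6013 RPM in WAGO-1, with ratios of 0.741 and 0.669 without cde-1. The set of 4 with K10E9.2, C09G12.7, F30F8.4 and Y38H6C.6 held 402 RPM in total N2, 4356 RPM in HRDE-1 and 9096 RPM in WAGO-1, and went to 92.8, 3149 and 4700 RPM, so its fall was steep in total RNA (0.231, 0.210 to 0.253) and slight in HRDE-1 (0.723, 0.709 to 0.737). In NRDE-3 of embryos it went from 92.4 to 11.3 RPM (0.122, 0.0930 to 0.160).

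A set of 6 with C52D10.5 went up in both germline Argonautes, from 1037 to 1224 RPM in HRDE-1 (1.18, 1.14 to 1.22) and from 1844 to 2900 RPM in WAGO-1 (1.57, 1.54 to 1.61). A set of 6 with K02B7.1 and a set of 5 with K02B7.2 shared 5 clones, 1 member of each set on every one of them. The former held 362 RPM in HRDE-1 and 171 RPM in WAGO-1, a ratio of 2.12 (1.96 to 2.30), and the latter 162 and 110 RPM, a ratio of 1.47 (1.32 to 1.64). Entered once each, the sets left 58 lower and 4 higher in HRDE-1, and 32 lower and 14 higher in WAGO-1. Fewer entries were tested in this way, so a smaller count is not a smaller share. The median log2 ratio was then -0.895 in HRDE-1 and -0.242 in WAGO-1, against -0.72 and -0.19 for single transcripts. Shares of all transcripts were not computed with sets joined.

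**Figure D5:**
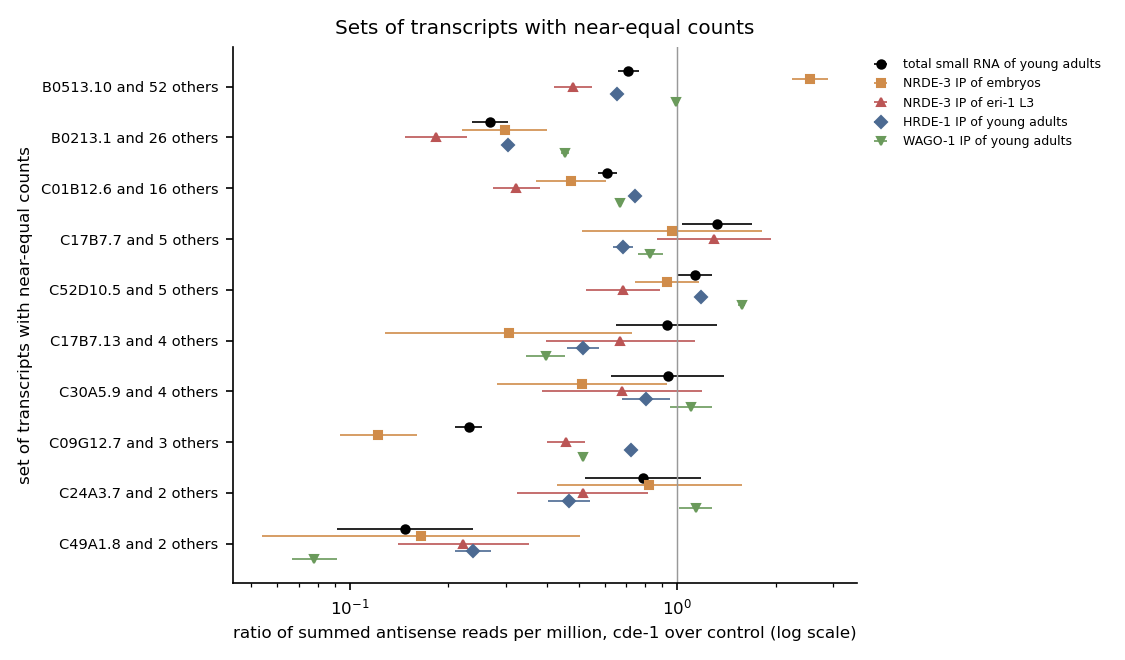
Ratio of summed antisense RPM, cde-1 over control, on a log axis for the 10 largest sets of transcripts with near-equal counts, with 95% counting intervals, in the 5 pairs (symbols). The set of 27 with B0213.1 lies below 1 in each pair, whereas that of 53 with B0513.10 lies above 1 in NRDE-3 of embryos and at 0.993 in WAGO-1.

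Genes that act in transposon silencing were themselves targets of antisense reads. In a list of 20 such genes (among them the Piwi gene prg-1, the mutator genes mut-7, mut-14, mut-15 and mut-16, the polymerases rrf-1 and ego-1, and the Argonaute genes hrde-1, wago-1 and ppw-2), 17 had at least 50 reads in the total pair, with 4 at least 2-fold higher and 0 lower without cde-1, beside 25% higher and 9.09% lower of all transcripts tested. In HRDE-1 9 of 20 were higher and 0 lower (34.9% and 10.8% of all transcripts), and in WAGO-1 3 of 15 were higher and 1 lower (17.3% and 16.5%). Of those tested in NRDE-3 of embryos, 3 of 8 were higher and 1 lower (29.8% and 27.8%), and in NRDE-3 of eri-1 L3 12 of 15 were higher and 0 lower (52.2% and 17.0%). Their median log2 ratios were 0.78 in total RNA, 0.83 in HRDE-1, 0.27 in WAGO-1, 0.76 in embryos and 1.92 at L3, each closer to the median of all transcripts than that of the transposon transcripts was. In WAGO-1 the gene nrde-1, whose product works with the nuclear Argonautes, rose by 1.96 on the log2 scale and nrde-2, of the same pathway, fell by 1.70.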

How the data were processed

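Small RNA was treated with phosphatase and kinase before cloning, per the labels, so that siRNAs with a 5′ triphosphate could be ligated. The paper describes this step in its account of Argonaute-bound RNA. The authors mapped clean reads of 10 libraries to WormBase transcripts with Bowtie2 at default settings and deposited sense and antisense read counts per transcript, with its class. Rows without a class (1 to 3 per library) were left out. A table of tail sequences with 6 columns that match no sample was not used. Counts per library were divided by counted reads outside class rRNA. Ratios of 2 libraries carry 95% log-normal intervals and shares Wilson intervals, both for counting error only. A transcript was tested with at least 50 antisense reads in either library and called at 2-fold, with 1 read on average added in proportion to the denominators. A library at 0 was set to 3 reads for a bound. Named transcripts were the 10 with the highest mean antisense and the 5 with the highest mean sense RPM, and the 2 largest rises and falls in each cde-1 pair and in HRDE-1 over WAGO-1. The members and lists were chosen with earlier results of these data known. Alternatives were other denominators, filters and added reads, TMM (edgeR 4.0.16) and median-of-ratios scaling. Python 3.11.15 and pandas 2.3.3 were used. The calls were tried on simulated counts with counting error only, which cannot show how variation between libraries affects them. Gene names came from Ensembl release 115 and RefSeq (WBcel235); the authors' transcript set is another release, so no coordinates are given.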

Additional observations from a re-analysis of the deposited data

Results flagged for a closer look

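The summed antisense reads of transposon transcripts had a ratio, cde-1(tm936) over control, of 1.20 in the NRDE-3 precipitation of embryos, against 0.523 in total small RNA, 0.434 in NRDE-3 of eri-1 L3, 0.493 in HRDE-1 and 0.785 in WAGO-1. The direction thus differed between pairs, with intervals on either side of 1, and with 1 library per group that difference was not tested. For the summed sense reads the ratio stood at 1.12 in the total pair and at 0.475, 0.850 and 0.674 in NRDE-3 of embryos, NRDE-3 of eri-1 L3 and HRDE-1, again opposite in direction and not tested. Among the named transcripts, F56C9.2 was higher without cde-1 in the total pair (ratio of antisense reads 2.52) and lower (0.401) in NRDE-3 of eri-1 L3, on 31 to 110 reads per library, and this difference was not tested.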

How the results depend on the processing

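Counting intervals are narrow at these depths, so most alternatives moved a class ratio by more than its interval. Divided by all counted reads, rRNA included, the antisense ratio without cde-1 was 0.471 in total RNA, 2.60 in NRDE-3 of embryos, 0.353 in NRDE-3 of eri-1 L3, 0.487 in HRDE-1 and 0.779 in WAGO-1. Per antisense protein-coding read it was 0.421, 1.22, 0.292, 0.458 and 0.754 for these pairs, and per sense miRNA read 0.499, 1.48, 0.348, 0.513 and 0.676. Leaving out T27C5.9 gave 0.544 in total RNA and 0.793 in WAGO-1. Leaving out T16A1.9, Y60A3A.27, T25G12.8 and ZC132.5, an alternative chosen after seeing the data, reversed the embryo pair to 0.648 and gave 0.397 at L3, since these transcripts hold most of the embryo sum. The embryo value without them was 1.40 by all counted reads, 0.658 per antisense protein-coding read and 0.795 per miRNA read, and that at L3 0.323, 0.267 and 0.318, all added after seeing the data.

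HRDE-1 over total N2 was 14.3 by all counted reads, 2.17 per antisense protein-coding read, 70.1 per miRNA read and 12.1 without T27C5.9, and WAGO-1 over total N2 was 17.8, 2.17, 314.3 and 12.9. HRDE-1 over WAGO-1 was 0.805, 0.999, 0.223 and 0.939.

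The ratio of sense reads in total RNA was 1.01 by all counted reads and 1.07 per miRNA read, and reversed to 0.904 per antisense protein-coding read. In NRDE-3 of embryos it reversed to 1.03 by all counted reads and was 0.583 per miRNA read. In NRDE-3 of eri-1 L3 it was 0.692, 0.572 and 0.683 by the 3 denominators, and in HRDE-1 0.626 per antisense protein-coding read and 0.701 per miRNA read. In WAGO-1 it reversed to 0.978 and 0.877 by the latter denominators.

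A minimum of 10 reads in place of 50 gave 105 transcripts past 2-fold in total RNA (main 68), 97 in NRDE-3 of embryos (main 22) and 166 in NRDE-3 of eri-1 L3 (main 59), and a minimum of 1 gave 123, 172 and 202, and 70 for HRDE-1 over WAGO-1 (main 42). Of these 172, 60 were higher and 112 lower, and of the 123, 26 higher and 97 lower. TMM and median-of-ratios scaling gave 177 and 192 in HRDE-1 (main 98), 117 and 117 for HRDE-1 over total N2 (main 253), and 90 and 108 for HRDE-1 over WAGO-1, of which 75 and 93 were lower. TMM shifted the log2 ratios without cde-1 by -0.49 in total RNA, -0.96 in NRDE-3 of eri-1 L3 and -0.51 in HRDE-1, and those of HRDE-1 and WAGO-1 over total N2 by -2.49 and -2.40. Shares of all transcripts past 2-fold under these filters and scalings are not given. Each set of transcripts with near-equal counts entered once, also chosen after seeing the data, gave 62 in HRDE-1, 46 in WAGO-1 (main 73), 128 and 127 for HRDE-1 and WAGO-1 over total N2 (main 253 in both) and 25 for HRDE-1 over WAGO-1 (16 higher and 9 lower). Fewer entries were tested in these comparisons once sets were joined, so a smaller count there is not a smaller share. Except where a clause above says otherwise, the cause was not tested. The other 49 values stayed within their interval or within 1.5 times the main count, a rule that takes no account of direction. By all counted reads the NRDE-3 embryo pair kept to it with 17 (main 22). Its 19 lower and 3 higher nonetheless became 6 lower and 11 higher. HRDE-1 over WAGO-1 kept to it with 54, though 22 higher and 20 lower became 20 higher and 34 lower. No paired analysis was possible because each group had 1 library.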
